A study of Mus musculus with 4 samples.

Results

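The genes described here encode respiratory complex I and the factors that assemble it. They were taken from the gene count table as every protein-coding row whose symbol begins with Nduf followed by a, b, c, s, v, ab or af and a number, which gave 48 genes of 21970 protein-coding rows and 56748 rows in all. Of these, 40 carry subunit names and 8 carry the Ndufaf names of assembly factors. Complex I (NADH:ubiquinone oxidoreductase) oxidises NADH in the mitochondrial matrix, passes the electrons along a chain of iron-sulfur clusters to ubiquinone and pumps protons across the inner membrane. Its matrix arm holds the N module, where NADH binds, and the Q module, where ubiquinone is reduced, and its membrane arm holds the proton pumps. The catalytic core is shared with bacteria and is encoded partly in the nucleus and partly in mitochondrial DNA, the accessory subunits surround it, and assembly factors build the modules but are not part of the finished enzyme. Of the Nduf symbols, Ndufa4 and Ndufa4l2 are homologs whose proteins are now placed with complex IV. Their values are given apart from those of the core and accessory subunits, but counts and medians over all subunits include them.

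RNA-seq libraries came from the lungs of female BALB/cJ mice that were injected intravenously at 7 weeks of age with 4T1-FLuc cells, a mouse mammary carcinoma line carrying firefly luciferase that seeds the lung. Both groups carried these tumours and were studied over 3 weeks of treatment, with 2 libraries each. The saline group, also labelled PBS control, received vehicle. The cmLumiOpto/PARPi group received both cmLumiOpto and olaparib at 50 mg/kg, an inhibitor of the DNA repair enzyme PARP. cmLumiOpto delivers, by exosome-enclosed AAV carrying an antibody to CD276, a light-gated rhodopsin channel targeted to the inner mitochondrial membrane together with Nanoluciferase, which makes light from the injected substrate ViviRen, and expression is driven by the cfos promoter. No library in these data received only one of the agents, so their separate parts in any difference cannot be told apart. The labels describe tumour cells from the lung and the study's methods describe lung tissue with metastases.

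The libraries held 16086720 and 15263375 assigned reads in the saline group and 16755228 and 16509603 in the treated group, so 3 reads, the floor used here for detection, correspond to 0.173 to 0.204 CPM (reads of a gene scaled to 1000000 reads of its library). Epithelial markers listed for 4T1 cells, among them Epcam and keratins, were present in every library. Their summed level was 3165 and 3505 CPM after saline and 2829 and 3949 CPM after treatment. These genes are not specific to tumour cells, so the sum does not measure tumour content. Markers of normal lung epithelium were higher after treatment: the 6 club cell markers summed to 107 to 1332 CPM in saline and 3384 to 6373 CPM in treated libraries, the 8 alveolar type 2 markers to 464 to 1719 CPM and 2973 to 8328 CPM, and the 8 ciliated cell markers to 7.56 to 14.6 CPM and 37.6 to 69.8 CPM. The 6 fibroblast markers were lower, at 3504 to 5087 CPM in saline and 1634 to 1841 CPM in treated libraries. Among all 15167 genes with enough reads to be tested, short transcripts also tended to be higher after treatment and long ones lower, as set out with the transcript lengths below.

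Of the 48 genes, 47 had enough reads to be tested. The exception was Ndufb11b, a second Ndufb11-like locus, which had 0 counts in every library, where 3 counts would have been the floor. Transcripts of the complex I genes were mostly higher in both treated libraries than in both saline libraries: this held for 33 of the 39 tested subunits and for all 8 assembly factors, against 27.4% of all tested genes. In the opposite direction, both treated libraries lay below both saline libraries for 2 subunits, against 27.8% of all tested genes, and for 4 subunits the groups overlapped. The median log2 fold change (treated over saline) was 0.49 for the subunits and 0.53 for the assembly factors, and 0.02 for all tested genes. These are steps of 1.40-fold and 1.44-fold.

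No single member passed the test. With edgeR's quasi-likelihood test and Benjamini-Hochberg adjustment, none of the 47 reached an adjusted p of 0.05, nor did any of the 15167 genes (0.0%), and the smallest adjusted p among the members was 0.138. At an unadjusted p under 0.05, 26 subunits and 2 assembly factors were higher, against 9.21% of all tested genes, and no member was lower, against 12.0%. DESeq2 placed 9 subunits and no assembly factor past its adjusted p of 0.05, all higher, beside 6.62% of the genes it adjusted. These 9 were Ndufa2, Ndufa4, Ndufa5, Ndufb1, Ndufb10, Ndufb4, Ndufb7, Ndufb8 and Ndufs6. With 2 libraries a group, leaving out single libraries moved the 26 subunits to between 14 and 21, with 14 without saline replicate 1 and 15 without treated replicate 1. The 2 assembly factors became 1 without saline replicate 1, saline replicate 2 or treated replicate 1.

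**Figure D1:**
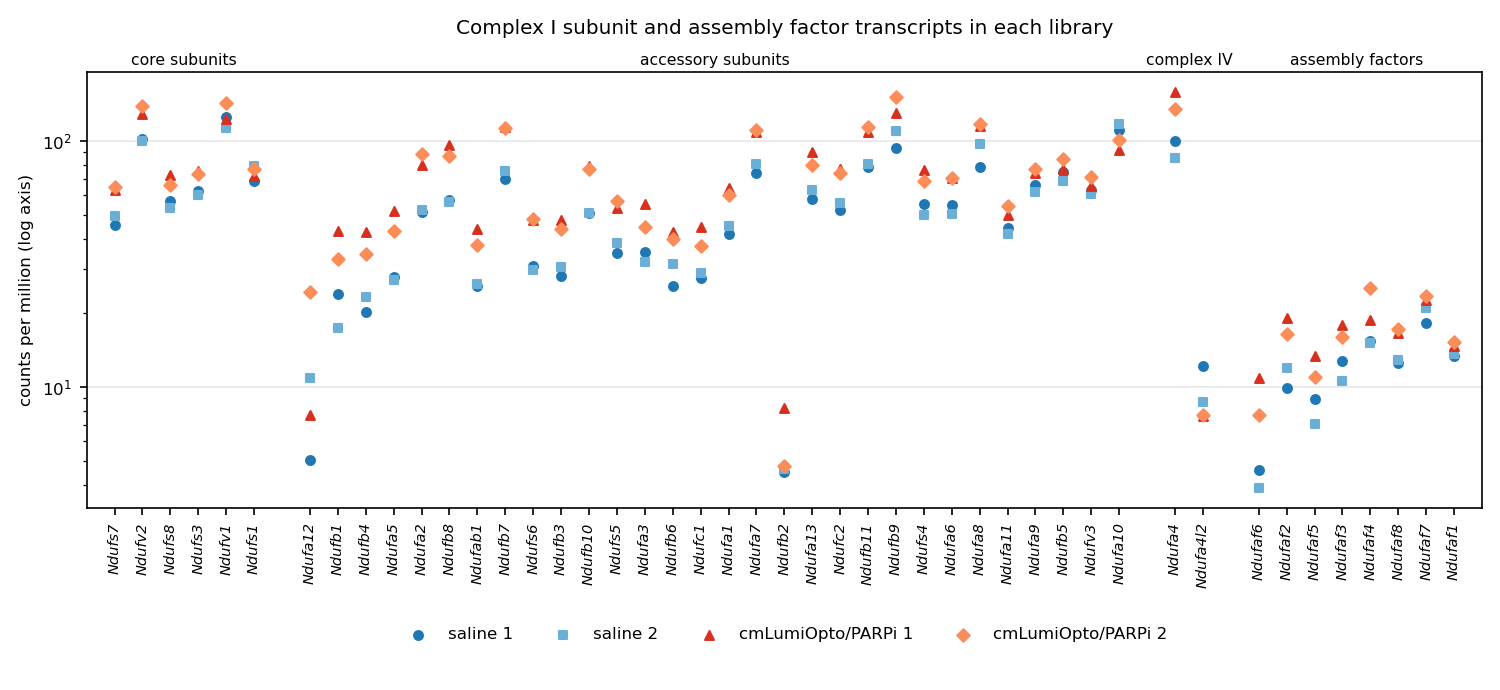
CPM of 46 detected genes in the 4 libraries, on a log axis, with genes grouped by role and, within a role, ordered by log2 fold change. Each point is 1 library. For most accessory subunits and for all 8 assembly factors both treated libraries sit above both saline libraries, while Ndufa10 and Ndufa4l2 sit below.

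The 7 nuclear core subunits carry the flavin and iron-sulfur clusters, and they had the smallest median difference of the subunit classes. Their median log2 fold change was 0.27, with 4 of 7 higher in both treated libraries and 2 at an unadjusted p under 0.05. Of all tested genes, 27.4% were higher in both treated libraries and 9.21% were higher at an unadjusted p under 0.05. In the N module, Ndufv1, which holds the flavin and binds NADH, measured 125 and 113 CPM after saline and 122 and 142 CPM after treatment, so the groups overlapped. Its iron-sulfur partner Ndufv2 measured 102 and 99.6 CPM against 128 and 139 CPM, with no overlap and a log2 fold change of 0.40 ± 0.13 (SE). Ndufs1, the large iron-sulfur subunit, measured 68.8 and 79.1 CPM against 71.9 and 76.4 CPM. Its log2 fold change of 0.00 ± 0.14 was the smallest in size of all members.

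In the Q module, Ndufs7, which carries the last iron-sulfur cluster before ubiquinone, measured 45.3 and 49.5 CPM against 63.0 and 64.6 CPM, a log2 fold change of 0.43 ± 0.14. Its groups did not overlap. Ndufs3 measured 62.3 and 60.2 CPM against 75.0 and 73.0 CPM, and Ndufs8 measured 57.1 and 53.2 CPM against 72.4 and 65.8 CPM. Both were higher in each treated library, with log2 fold changes of 0.27 ± 0.13 and 0.33 ± 0.14 and adjusted p-values of 0.280 and 0.248.

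The median difference was larger among the 30 accessory subunits than among the core. Both treated libraries were above both saline libraries for 28 of 30, the median log2 fold change was 0.52, and 23 had an unadjusted p under 0.05. The shares of all tested genes were 27.4% and 9.21%. Their mean log2 CPM stood below that of the core by 1.04 and 0.97 after saline and by 0.68 and 0.78 after treatment, so the distance between accessory and core transcripts was narrower in both treated libraries. No test was run on that distance, since the genes are not replicates.

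By position in the enzyme, the 11 accessory subunits of the distal membrane arm had the largest median log2 fold change, 0.61. All 11 were higher in both treated libraries and 9 had an unadjusted p under 0.05, against 27.4% and 9.21% of all tested genes. Shares by transcript length are given below. Ndufb8, an accessory subunit of this arm encoded at chr19:44548572-44555440 (GRCm38, minus strand), had the smallest p of all members. It measured 57.4 and 56.4 CPM after saline and 96.1 and 86.3 CPM after treatment. Both treated values were far outside the range of the saline pair, and the log2 fold change was 0.68 ± 0.13 (adjusted p = 0.138 by edgeR). Ndufb7, on the intermembrane-space side of the same arm, measured 69.6 and 75.4 CPM against 114 and 113 CPM, a log2 fold change of 0.65 ± 0.13. Ndufb10 measured 50.7 and 50.9 CPM against 78.9 and 76.5 CPM, a log2 fold change of 0.61 ± 0.13. In each of these 3 genes the replicates of a group lay close together and the groups were well apart, which their choice by smallest p favours.

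The distal arm also held Ndufb5 and Ndufb2, which with Ndufv3 of the N module had the largest p-values of the accessory subunits. Ndufb5 measured 74.9 and 68.3 CPM against 76.8 and 83.9 CPM, with a log2 fold change of 0.17 ± 0.13. Ndufb2 measured 4.52 and 4.63 CPM against 8.17 and 4.75 CPM, so its log2 fold change of 0.50 ± 0.37 came almost wholly from treated replicate 1. Exons of 20 of the 48 genes share bases with a neighbouring gene in the annotation, 18 of them with a gene on the opposite strand, and whether strand was used in counting is not given in the sources used here. For Ndufb5 this is the mitochondrial ribosomal gene Mrpl47, which shares 12.3% of its exon bases.

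In the N module, 6 of the 7 accessory subunits were higher in both treated libraries, against 27.4% of all tested genes. The median log2 fold change of the 7 was 0.51. Ndufa2, a small subunit with a thioredoxin-like fold, measured 51.4 and 52.5 CPM against 79.3 and 88.6 CPM, a log2 fold change of 0.69 ± 0.14. Ndufv3 measured 63.3 and 60.6 CPM against 65.6 and 70.9 CPM, with a log2 fold change of 0.14 ± 0.13. The seventh, Ndufa12, overlapped between groups and is taken up with its copy below. In the Q module, Ndufa5 measured 27.9 and 27.1 CPM against 51.9 and 42.8 CPM, a log2 fold change of 0.78 ± 0.17. Its neighbour Ndufa9 had a log2 fold change of 0.23 ± 0.13, so accessory subunits of 1 module were not alike in size of difference. Ndufab1, the mitochondrial acyl carrier protein that is found in both arms, measured 25.6 and 26.1 CPM against 43.8 and 37.6 CPM, a log2 fold change of 0.65 ± 0.16.

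Among the 9 accessory subunits of the proximal membrane arm, 8 were higher in both treated libraries, against 27.4% of all tested genes. The median log2 fold change of the 9 was 0.49. Ndufa10, a subunit with a nucleoside-kinase-like fold encoded at chr1:92439010-92473860 (GRCm38, minus strand), went the other way. It measured 111 and 117 CPM after saline and 91.5 and 101 CPM after treatment, a log2 fold change of -0.24 ± 0.13 with an adjusted p of 0.334. It was the only core or accessory subunit with both treated libraries below both saline libraries. The difference was smaller than that of most subunits that were higher.

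The homologs placed with complex IV moved apart from each other. Ndufa4, which has the highest level per kilobase of transcript of all 48 genes, measured 99.6 and 85.1 CPM after saline and 158 and 135 CPM after treatment, a log2 fold change of 0.66 ± 0.15 (adjusted p = 0.138 by edgeR). Ndufa4l2, a hypoxia-inducible relative encoded at chr10:127514967-127517154 (GRCm38, plus strand), measured 12.2 and 8.65 CPM against 7.60 and 7.70 CPM. Its treated values were below both saline values, but the saline libraries differed among themselves by more than the distance to the treated pair, and the log2 fold change was -0.44 ± 0.28 (adjusted p = 0.402). The ratio of Ndufa4 to Ndufa4l2 CPM was 8.19 and 9.83 after saline and 20.7 and 17.5 after treatment, so the groups did not overlap in the ratio either.

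**Figure D2:**
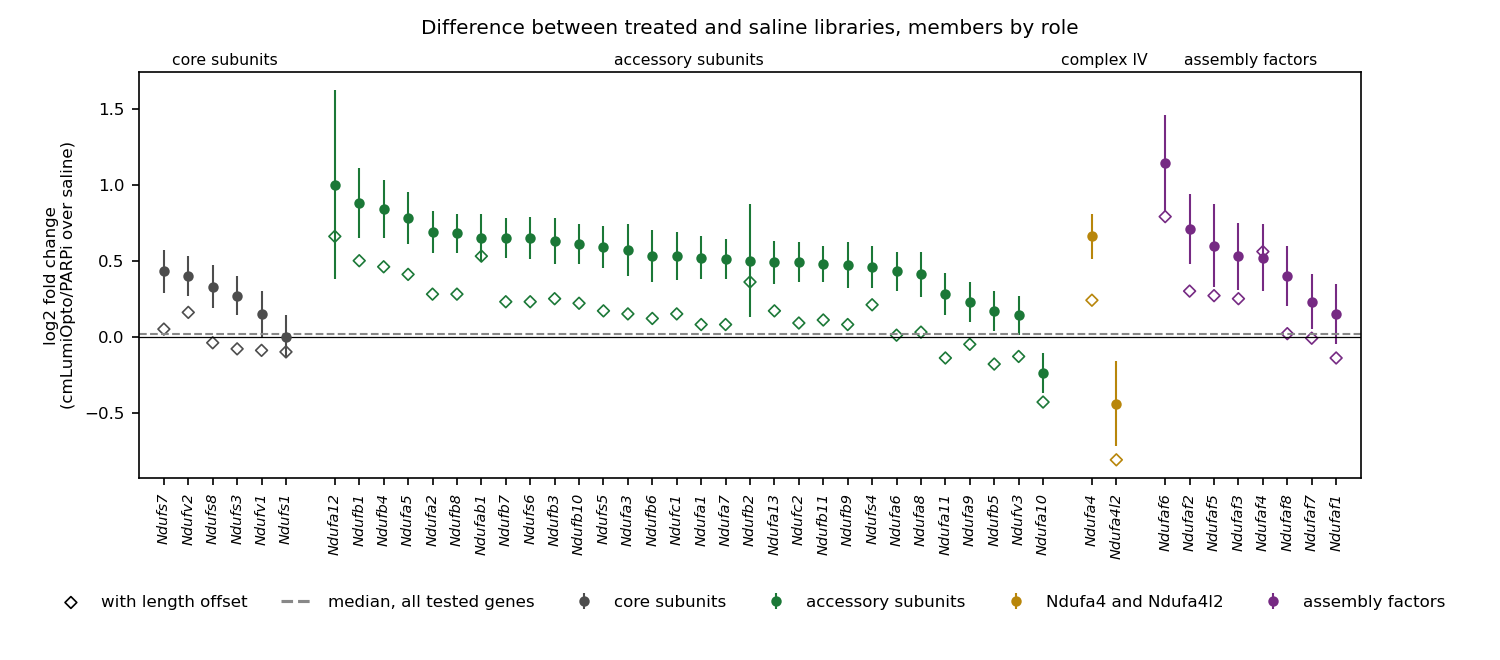
Log2 fold change of 46 tested genes (filled points, bars are 1 SE derived from edgeR's F statistic, 2 libraries a group), grouped by role. Open diamonds give the same gene after an offset for the length of its principal transcript, and the dashed line is the median of all tested genes, 0.02. The filled points are at or above 0 for 44 of the 46 genes, with Ndufs1 at 0.00, and 45 of the diamonds lie lower than their filled point, the exception being Ndufaf4.

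All 8 assembly factors were higher in both treated libraries, at lower levels than the subunits. Mean log2 CPM of the subunits exceeded that of the assembly factors by 2.02 and 2.09 after saline and by 1.94 and 2.00 after treatment. The medians of 0.49 and 0.53 for subunits and assembly factors were close. An unadjusted p under 0.05 was reached by 2 of 8 assembly factors and 26 of 39 subunits, against 9.21% of all tested genes higher at that threshold. The count of assembly factors depended on the scaling, with 6 (and 30 subunits) under upper quartile scaling and 4 (and 29 subunits) with library totals alone. The SEs of the assembly factors were also larger, from 0.18 to 0.32, at counts of 57 to 417 reads a library.

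Ndufaf6, an early assembly factor encoded at chr4:11051045-11076205 (GRCm38, minus strand), had the largest log2 fold change of all members. It had 73 and 57 reads after saline and 190 and 128 after treatment, that is 4.58 and 3.88 CPM against 10.9 and 7.70 CPM, a log2 fold change of 1.14 ± 0.32 (adjusted p = 0.159 by edgeR). Ndufaf2, a paralog of the subunit Ndufa12 that occupies a late intermediate, measured 9.91 and 11.9 CPM against 19.1 and 16.4 CPM, a log2 fold change of 0.71 ± 0.23. For both genes the lower treated value was still above the higher saline value, and the treated libraries differed from each other more than the saline libraries did.

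Ndufaf3 and Ndufaf4 act together on the Q module. Ndufaf3 measured 12.7 and 10.6 CPM against 17.8 and 15.9 CPM, and Ndufaf4 measured 15.4 and 15.1 CPM against 18.7 and 25.1 CPM. Their log2 fold changes were 0.53 ± 0.22 and 0.52 ± 0.22. Ndufaf5, which hydroxylates an arginine of Ndufs7, measured 8.91 and 7.09 CPM against 13.3 and 11.0 CPM, and its partner Ndufaf8 measured 12.5 and 12.9 CPM against 16.5 and 17.2 CPM. Their log2 fold changes were 0.60 ± 0.27 and 0.40 ± 0.20.

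The smallest differences among the assembly factors were those of Ndufaf7 and Ndufaf1. Ndufaf7, a methyltransferase, measured 18.2 and 21.0 CPM against 22.5 and 23.4 CPM, a log2 fold change of 0.23 ± 0.18. Ndufaf1, of the complex that assembles the membrane arm, measured 13.4 and 13.6 CPM against 14.6 and 15.2 CPM, a log2 fold change of 0.15 ± 0.20. Both were higher in each treated library, by little compared with the SE.

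Promoters are shown for 3 members with a match to a motif of a factor known for nuclear genes of respiration and for Ndufa10, which was lower. RefSeq promoters of 300 bases (build GRCm38.p6, 250 bases before to 50 after the start) were found for 41 of the 48 genes by symbol. The motifs searched on both strands were GCGCNTGCGC for NRF1, AAGATGGC for YY1, CCGGAAG for ETS factors such as GABP, the CCAAT box and TATAAA. The sequences below run from 200 bases before to 30 after the start, with matches to the NRF1 or YY1 letters in capitals. Ndufb4 lies at chr16:37654339-37654568 (minus strand), Ndufa5 at chr6:24527661-24527890 (minus, the second of its 2 listed promoters), Ndufaf8 at chr11:120098734-120098963 (plus) and Ndufa10 at chr1:92473729-92473958 (minus).
Ndufb4: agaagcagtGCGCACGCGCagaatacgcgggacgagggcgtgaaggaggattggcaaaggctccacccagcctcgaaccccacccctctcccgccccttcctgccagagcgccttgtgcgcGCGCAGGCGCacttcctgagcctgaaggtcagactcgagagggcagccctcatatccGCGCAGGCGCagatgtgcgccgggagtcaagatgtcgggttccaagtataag
Ndufa5: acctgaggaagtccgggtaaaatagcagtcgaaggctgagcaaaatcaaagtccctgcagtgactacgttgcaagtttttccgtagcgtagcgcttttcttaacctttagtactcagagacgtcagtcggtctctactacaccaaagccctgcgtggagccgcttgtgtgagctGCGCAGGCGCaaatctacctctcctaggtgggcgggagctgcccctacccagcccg
Ndufaf8: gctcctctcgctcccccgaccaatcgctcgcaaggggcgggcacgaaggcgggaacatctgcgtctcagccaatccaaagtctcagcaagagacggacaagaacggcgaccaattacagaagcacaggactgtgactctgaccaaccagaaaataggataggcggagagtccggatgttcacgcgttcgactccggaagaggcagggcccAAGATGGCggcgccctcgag
Ndufa10: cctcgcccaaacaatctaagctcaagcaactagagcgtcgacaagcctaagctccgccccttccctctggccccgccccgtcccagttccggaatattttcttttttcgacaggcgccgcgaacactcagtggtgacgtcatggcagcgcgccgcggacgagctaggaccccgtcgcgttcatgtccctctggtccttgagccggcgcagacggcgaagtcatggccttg

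Over the 41 members, the NRF1 letters were in the promoters of 9 (22.0%), against 5.19% of 27025 gene symbols with a listed promoter, and the YY1 letters in 8 (19.5%), against 3.19%. The ETS letters were in 6 members (14.6% against 9.93%), the CCAAT box in 14 (34.1% against 41.1%) and TATAAA in 4 (9.76% against 15.7%). The 27025 symbols were not limited to the tested genes, and shares among tested genes alone were not computed. Ndufb4 held 3 NRF1 matches, and Ndufs6 held both NRF1 and YY1 letters. The members with NRF1 letters had a median log2 fold change of 0.59 and the 32 without 0.49, and those with YY1 letters had 0.49 and the 33 without 0.51. These matches describe the sequence and were not read as bound sites. Ndufb4 itself measured 20.1 and 23.2 CPM after saline and 42.5 and 34.8 CPM after treatment, a log2 fold change of 0.84 ± 0.19.

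The complex I genes share a feature that the choice by symbol did not use, namely short transcripts. The median principal transcript, taken from GENCODE M21, was 872.75 bases for the subunits, 1308.5 bases for the assembly factors and 2727.5 bases for all tested genes with a listed length. Core subunits had longer transcripts (median 1623 bases) than accessory subunits (772.5 bases). Across the 47 members the log2 fold change decreased with length (Spearman's rho = -0.40), as it did across 15030 tested genes (rho = -0.43). Both are descriptions across genes of the same 4 libraries, and genes are not independent replicates.

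In the shortest of 5 equal length groups of tested genes, up to 1423 bases, the median log2 fold change of all genes was 0.34, 53.2% were higher in both treated libraries and 23.2% were higher at an unadjusted p under 0.05. That group held 33 of the 47 members, with a median of 0.53, and of these 31 were higher in both treated libraries and 25 had an unadjusted p under 0.05. In the next group, up to 2276 bases, all genes had a median of 0.15 and the 10 members there 0.19. The members that stood above the genes of their length included Ndufab1, Ndufb2 and Ndufaf4, with principal transcripts of 2447.5, 2413 and 3632 bases.

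**Figure D3:**
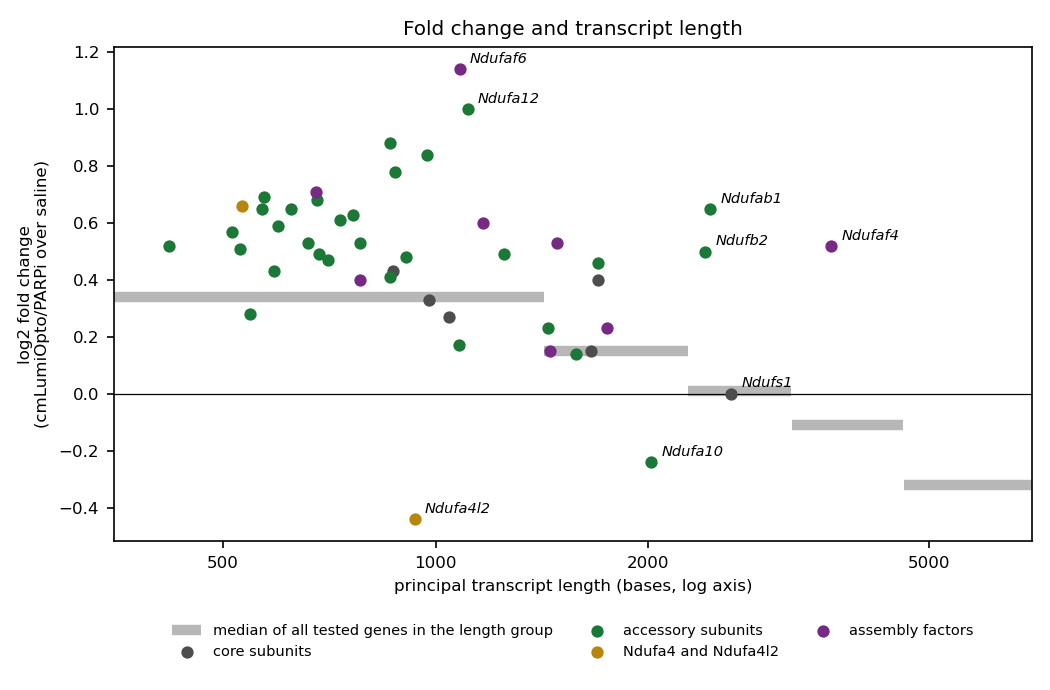
Log2 fold change of 46 tested genes against the length of the principal transcript in bases (log axis), coloured by role. Grey bars are the medians of all tested genes in 5 equal length groups, falling from 0.34 to -0.32, with the outer groups drawn only to the edge of the axis. Most accessory subunits lie above the bar of the shortest group and most core subunits lie near the bars of their length.

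When the length trend across all genes was taken out with a loess offset, the medians of the complex I genes were lower, more so for the subunits than for the assembly factors. With the exon length deposited by the authors, 5 subunits and 1 assembly factor were higher at an unadjusted p under 0.05, against 6.05% of all genes, 19 subunits and 5 assembly factors were higher in both treated libraries, against 21.0%, and the medians were 0.15 and 0.26. With the principal transcript length, 1 subunit and 1 assembly factor were higher at an unadjusted p under 0.05, against 5.52% of all genes, 15 subunits and 5 assembly factors were higher in both treated libraries, against 19.8%, and the medians were 0.12 and 0.26. The median of all genes was -0.05 with the first offset and -0.06 with the second. In the second fit the subunit was Ndufab1 (log2 fold change 0.53) and the assembly factor was Ndufaf6 (0.79). The medians of the core and accessory subunits became -0.08 and 0.16. In the distal arm 6 of 11 accessory subunits were higher in both treated libraries. The same held for 3 of 7 in the N module and 2 of 9 in the proximal arm. None of these subunits was higher at an unadjusted p under 0.05.

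In the same fit Ndufa10 and Ndufa4l2 had log2 fold changes of -0.43 and -0.81 and unadjusted p-values of 0.0455 and 0.0248 by edgeR's quasi-likelihood test, neither past the adjusted threshold. These were the only 2 of 47 members lower at an unadjusted p under 0.05, against 7.29% of all genes, so their share was not above that of all genes. Whether the length trend belongs to the libraries or to the tissue was not tested, and with 2 libraries a group it cannot be told apart from the treatment.

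Some members have near-identical copies in the genome, and which locus the reads counted at either came from was not tested. Of the 48 genes, 16 had another gene in the table at least 90% identical over at least 50% of the coding sequence, and 5 had a copy at least 98% identical over at least 90%. The clearest case was Ndufa12, an N-module subunit at chr10:94198720-94221443 (GRCm38, plus strand). It had 80 and 160 reads after saline and 133 and 402 after treatment, so the replicates lay far apart in both groups and the SE of its log2 fold change of 1.00 was 0.62. The processed pseudogene Ndufa12-ps, at chr5:130188395-130188796 (GRCm38, plus strand), held more reads, with 673 and 594 after saline and 919 and 783 after treatment. The coding stretch of Ndufa12 from base 90 to 179 is shown with the aligned stretch of the copy, in which the only difference is in capitals. Over the whole alignment of 399 bases the sequences differed at 2 positions.
Ndufa12: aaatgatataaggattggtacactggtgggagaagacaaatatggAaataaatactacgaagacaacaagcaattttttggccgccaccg
Ndufa12-ps: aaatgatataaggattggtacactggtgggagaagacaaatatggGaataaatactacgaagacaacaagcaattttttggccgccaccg

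The copy held 89.4% and 78.8% of the summed reads of the pair after saline and 87.4% and 66.1% after treatment. With the reads of both loci added together, the level was 47.2 and 51.4 CPM after saline and 60.6 and 71.3 CPM after treatment, the groups no longer overlapped, and the log2 fold change was 0.42 ± 0.15. Thus the sum of gene and copy varied less among replicates than the gene alone. For Ndufab1, 2 copies held 22.7% to 28.9% of the summed reads, and its log2 fold change with them added was 0.58 ± 0.14. For Ndufb4, Ndufs3 and Ndufs5 the copies held 3.39% to 7.39% of the sum, and the log2 fold changes were 0.86, 0.28 and 0.58.

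Levels between genes can be compared only per length. In CPM per kilobase of principal transcript, averaged over the saline libraries, the highest members were Ndufa4 at 174, Ndufa7 at 146 and Ndufb9 at 144, and after treatment they kept the first 3 places with 275, 208 and 199. Ndufa7, an N-module subunit, measured 73.6 and 80.6 CPM against 108 and 111 CPM, and Ndufb9, a LYR-motif subunit of the distal arm, measured 93.0 and 109 CPM against 130 and 151 CPM. The 8 assembly factors had 3.91 to 16.3 CPM per kilobase after saline, below every core subunit, the lowest of which was Ndufs1 at 28.2. Among the accessory subunits the lowest were Ndufb2 at 1.90, Ndufa12 at 7.17 and Ndufab1 at 10.6. The values of Ndufa12 and Ndufab1 leave out the reads counted at their copies.

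The 7 core subunits encoded in mitochondrial DNA did not share the close replicates of the nuclear genes. Their summed level was 4264 and 4901 CPM after saline and 8066 and 4839 CPM after treatment, so treated replicate 1 stood apart and treated replicate 2 was within the saline range. mt-Nd1 measured 1530 and 1740 CPM against 2430 and 1730 CPM, and mt-Nd5 measured 939 and 1170 CPM against 1640 and 901 CPM. For both, the groups overlapped, as they did for mt-Nd4l at 2.82 and 3.82 CPM against 9.50 and 2.89 CPM. mt-Nd4 measured 747 and 812 CPM against 1800 and 995 CPM, with a log2 fold change of 0.84 ± 0.30. It was the only one of the 7 at an unadjusted p under 0.05, against 9.21% of all tested genes higher at that threshold. Including mt-Nd4, 4 of the 7 were higher in both treated libraries, against 27.4% of all tested genes. mt-Nd2 (764 and 857 CPM against 1650 and 875 CPM), mt-Nd3 (18.4 and 17.9 CPM against 36.2 and 21.0 CPM) and mt-Nd6 (260 and 298 CPM against 501 and 318 CPM) were higher in both treated libraries, with treated replicate 2 close to the saline range in mt-Nd2 and mt-Nd6.

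Assembly factors that do not carry the Ndufaf name were measured from a list of 12, of which 11 were in the table. Of these, 6 were higher in both treated libraries, against 27.4% of all tested genes, none was lower in both, against 27.8%, and the median log2 fold change was 0.37. Dmac1, a factor of the distal membrane arm, measured 14.2 and 14.9 CPM against 30.1 and 29.8 CPM, a log2 fold change of 1.05 ± 0.17 (adjusted p = 0.138 by edgeR). Tmem126b, of the same membrane-arm complex as Ndufaf1, measured 11.0 and 10.4 CPM against 18.9 and 16.7 CPM, a log2 fold change of 0.73 ± 0.21. Tmem70 measured 30.5 and 29.2 CPM against 41.5 and 35.9 CPM, a log2 fold change of 0.37 ± 0.16. These 3 were higher in both treated libraries. Acad9, Dmac2 and Foxred1 had negative log2 fold changes of -0.20, -0.11 and -0.03, and the groups overlapped for each.

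Of 11 regulators of mitochondrial biogenesis, 10 were tested, with 2 higher and 3 lower in both treated libraries, against 27.4% and 27.8% of all tested genes. Their median log2 fold change was -0.14 and their median transcript 3594.5 bases, and all tested genes of the length group that includes it had a median of -0.11. Esrra, a nuclear receptor that acts on respiratory genes, measured 36.7 and 38.0 CPM against 48.8 and 46.3 CPM, a log2 fold change of 0.35 ± 0.14. Gabpa, the DNA-binding subunit of GABP, measured 74.5 and 89.5 CPM against 61.6 and 65.4 CPM, a log2 fold change of -0.37 ± 0.15. Nrf1 was lower in both treated libraries, at 44.8 and 37.1 CPM against 31.5 and 35.4 CPM, with a log2 fold change of -0.29 ± 0.17. Ppargc1b, a coactivator, had 40 and 39 reads against 33 and 14, with a log2 fold change of -0.91 ± 0.54. Tfb1m, which modifies mitochondrial ribosomal RNA, and Tfam, which packages and transcribes mitochondrial DNA, had log2 fold changes of 0.36 ± 0.32 and 0.08 ± 0.15. None of the regulators passed the adjusted threshold, and Ppargc1a had 3 to 11 reads a library, too few to be tested.

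**Figure D4:**
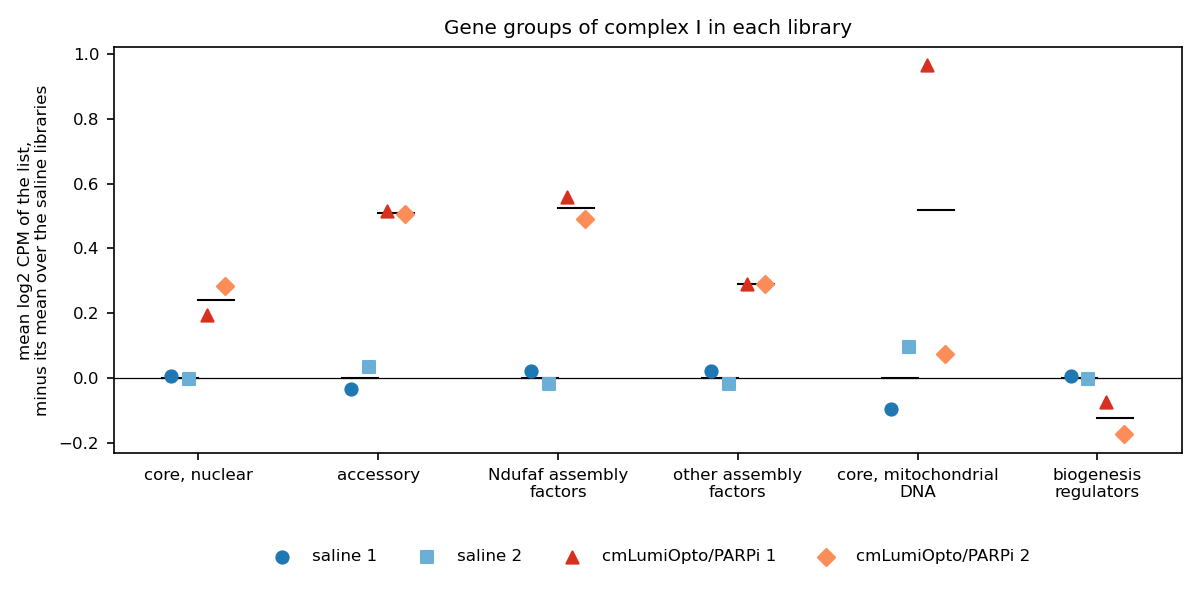
Mean log2 CPM of 6 gene groups in each library, after subtracting the group's mean over the saline libraries. Points are libraries and the short lines are group means. The accessory subunits and Ndufaf assembly factors lie about equally high in both treated libraries, the mitochondrial DNA group is high in treated replicate 1 alone, and the regulators lie slightly below the saline libraries.

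In bulk RNA, a change in how many cells of a type were present and a change in the RNA of each cell cannot be told apart. The markers moved as follows beside the complex I result: both treated libraries were above both saline libraries for 6 of 6 club cell, 8 of 8 ciliated cell, 7 of 8 alveolar type 2 and 4 of 6 alveolar type 1 markers, and below them for 6 of 6 fibroblast markers. Of the 8 epithelial markers listed for 4T1 cells, which are not specific to tumour cells, none was above and 1 was below. Of all tested genes, 27.4% were above and 27.8% below. In the endothelial, macrophage, neutrophil and T-cell lists, 1 of 6 markers each was above, as was 1 of 5 proliferation markers. Below were 1 of 8 alveolar type 2 markers (Abca3, at 147 and 129 CPM against 125 and 94.0 CPM), 1 of 6 macrophage and 2 of 5 proliferation markers. The club cell markers summed to 1332 and 107 CPM in saline replicates 1 and 2. The mean log2 CPM of the complex I subunits was 5.52 and 5.55 in these libraries. Heart muscle and brown fat are rich in complex I. The 9 heart muscle markers summed to 103.5 and 94.0 CPM after saline and 68.9 and 158 CPM after treatment. Most of this was Tnnt2, at 96.5 and 89.9 CPM against 59.6 and 144 CPM. Each other heart muscle marker was at most 4.21 CPM, and Nppa was under 3 reads in every library. The 5 brown fat markers summed to 0.314 and 0.477 CPM and 0.461 and 0.542 CPM, with Adipoq and Plin1 under 3 reads in every library. None of these markers was at 0 in all libraries, and the part of the cell types marked by any of the lists in the complex I result was not tested.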

How the data were processed

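RNA-seq was made from 2 saline and 2 cmLumiOpto/PARPi libraries. The authors deposited a table of raw read counts per gene, with the exon length of each gene. The study's methods name GRCm38 and HISAT2, and the submitters' processing notes name mm39, HISAT, HISAT2 and TopHat2. The aligner version, the annotation release and the strand setting are not given in the sources used here. The deposited gene positions matched GENCODE M21 (GRCm38) for 3 of the 48 members and the deposited exon lengths for all 48, so coordinates are those of GENCODE M21 and the deposited positions were not used.

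Counts were fitted for all genes passing edgeR's filterByExpr (minimum count 10) with trimmed mean of M-values scaling and the quasi-likelihood test (edgeR 4.0.16, limma 3.58.1, R 4.3.3), group as the only term and Benjamini-Hochberg adjustment over all tested genes at 0.05. CPM use the scaled library sizes, and the prior count for mean log2 CPM was 2. Errors of log2 fold changes are standard errors (SE). They were derived as the size of the log2 fold change divided by the square root of the test's F statistic. DESeq2 1.42.0, other scalings, no filter, a fit with the replicate number as a block, leaving out each library, and a loess offset for gene length (span 0.5) were alternatives. The offset for principal transcript length and the fit with copies added were chosen after seeing the data. Copies were found with blastn 2.17.0. The fit was tested on simulated data.

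The labels do not say that the replicates of a group are separate mice, so p-values measure only the spread between these libraries, which may be technical. 1 member enters the fits and counts but is not reported here. The members, lists and tests were chosen with earlier results of these data known. The genes given with values were the nuclear core subunits (except that member), the assembly factors, Ndufa4 and Ndufa4l2, and, of the remaining subunits, the 5 with the smallest p in each direction (1 was lower), the 3 with the largest p and the 3 highest and 3 lowest per kilobase; of the other lists, every mitochondrial DNA subunit and up to 3 in each direction. Ndufb4, Ndufa9, Ndufs6, Ndufs5 and the genes called by DESeq2 were named after their values were seen.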

Additional observations from a re-analysis of the deposited data

How the results depend on the processing

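With 2 libraries a group and no member past an adjusted p of 0.05, the depth limits mainly the low members (Ndufb2, Ndufa12, Ndufaf6), and agents given together cannot be told apart. The replicate numbers were shared by the groups but tie no animals together. Deviations from the group means correlated at a Spearman's rho of 0.298 between libraries of the same number. With 2 libraries a group, deviations within a group mirror each other, so the value of -0.298 between the others follows from it. Whether the numbers pair libraries was not tested. In the block fit on those numbers, 1822 of 15167 genes and 16 of 47 members (15 subunits and Ndufaf6) passed the adjusted threshold. Of the 8 assembly factors, 5 were higher at an unadjusted p under 0.05, against 14.6% of all tested genes. DESeq2 called 965 of the 14586 genes it adjusted and 9 of 47 members. The fit without a filter on low counts called 2000 of 25435 genes and 13 of 47 members. Upper quartile scaling, which moved the median of all genes to 0.13, gave medians of 0.60 (subunits) and 0.63 (assembly factors) and 6 assembly factors under 0.05. Library totals alone gave 0.56, 0.59 and 4.

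The length offset gave 5 subunits and 1 assembly factor higher at an unadjusted p under 0.05, against 6.05% of all tested genes. It gave 19 and 5 higher in both treated libraries, against 21.0%, and medians of 0.15 and 0.26. With the block as well, 1234 of 15167 genes and 3 of 47 members (Ndufab1, Ndufb7, Ndufb8) passed. The share of members was not above that of all genes. In that fit 7 subunits and 1 assembly factor were under 0.05, without a share of all genes to read them against. As without the block, 19 and 5 were higher in both treated libraries, and the medians were 0.15 and 0.26. The principal length offset, chosen after seeing the data, gave 1 and 1 (against 5.52% of all tested genes), 15 and 5 (against 19.8%), and medians of 0.12 and 0.26. Adding copies, also chosen after seeing the data, and the other scalings changed no other count by over 1.5 times. The cause was not tested.

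Leaving out single libraries gave 0 to 31 genes and 0 members past the threshold. It gave 14 to 21 subunits and 1 to 2 assembly factors under 0.05, and medians of 0.44 to 0.53 and 0.42 to 0.54. Each of these fits left 1 group with a single library, so the counts past a threshold rest on little. Every remaining treated library was above every remaining saline library for 33 to 36 subunits and 8 assembly factors. Apart from rescaling, genes separated with all libraries stay separated when 1 is removed. These counts could therefore hardly fall, and they do not test how stable the separation is.

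Signs changed for some named genes, among them genes with log2 fold changes of 1.00 (Ndufa12) and 0.90 (mt-Nd4l) with all libraries. With the length offset, alone and with the block, log2 fold changes became -0.06 and -0.07 for Ndufv1, -0.03 and -0.03 for Ndufs8, -0.19 and -0.19 for Ndufaf1, -0.02 and -0.03 for Ndufv3, -0.03 and -0.04 for mt-Nd1, and -0.06 and -0.10 for mt-Nd5. With the principal length offset they became -0.09 for Ndufv1, -0.08 for Ndufs3, -0.04 for Ndufs8, -0.10 for Ndufs1, -0.01 for Ndufaf7, -0.14 for Ndufaf1, -0.18 for Ndufb5, -0.13 for Ndufv3 and -0.03 for mt-Nd1. Ndufs1 was -0.01 without the filter and with DESeq2, and Foxred1 was 0.08 with upper quartile scaling and 0.04 with library totals. Without single libraries, log2 fold changes ranged from -0.11 to 0.09 for Ndufs1, -0.07 to 1.65 for Ndufa12, -0.20 to 1.50 for mt-Nd4l, -0.23 to 0.62 for mt-Nd5, -0.03 to 0.15 for Tfam, -0.31 to 0.04 for Dmac2 and -0.19 to 0.10 for Foxred1.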
